A study of Mus musculus with 7 samples.

Results

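The genes examined here are the MHC class I antigen presentation genes of mouse LSK cells. They are 10 genes chosen by name among the 24421 gene symbols of the deposited RNA-seq counts. The rule used no expression values, but the choice was made with earlier results of these data known. They comprise the class I heavy chains H2-K1 and H2-D1, their light chain B2m, the peptide loading genes Tap1, Tap2 and Tapbp, the immunoproteasome subunits Psmb8, Psmb9 and Psmb10, and the regulator Nlrc5. All 10 were among the 13340 genes with enough counts to be tested.

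LSK cells are the Lin-Sca1+Kit+ fraction of bone marrow, which holds hematopoietic stem cells and multipotent progenitors. BoyJ recipients were transplanted with bone marrow mononuclear cells from Rosa-CreERT2 donors that carried either 1 floxed Ddx41 allele (Ddx41+/-, 3 samples, replicates 6 to 8) or wild-type Ddx41 (Ddx41+/+, 4 samples, replicates 1 to 4), and both groups received tamoxifen at 1 mg per injection. Cells were sorted at 8 weeks post-transplant. Rosa-CreERT2 is a tamoxifen-activated recombinase driven by a broadly active promoter, so deletion was not limited to one type of donor-derived cell. The BoyJ recipients were not its target, and the labels name no gate that would remove LSK cells left by the host. Ages, and whether each sample had its own donor, are not given in the sources used here, and p-values therefore measure the spread between these samples. Ddx41 encodes a DEAD-box RNA helicase, and the comparison asked how the transcriptome of stem and progenitor cells with 1 Ddx41 allele differs from wild type.

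MHC class I molecules sit on the surface of nearly all nucleated cells and show short peptides from the cell's own proteins to CD8+ T cells. Peptides are cut by the proteasome, carried into the endoplasmic reticulum by the transporter TAP, and loaded onto a heavy chain paired with beta-2-microglobulin while tapasin holds the empty molecule at the transporter. Interferon gamma raises most of these genes together, and NLRC5 acts at a shared promoter module of class I genes. Stem and progenitor cells of the bone marrow express class I molecules, which matters for their recognition by T and NK cells.

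Total counts ranged from 32234499 to 43751290 per sample, and the 10 genes had between 2391 and 54626 counts in a sample. Levels are given as CPM, counts scaled to library size, with library sizes scaled by the trimmed mean of M values (TMM). Ddx41 itself was at 92.8, 98.8, 93.3 and 106.6 CPM in Ddx41+/+ replicates 1 to 4 and at 68.1, 64.4 and 69.5 CPM in Ddx41+/- replicates 6 to 8, with an edgeR adjusted p of 0.0052, so that the labels and the Ddx41 level went together. The RNA of the sort markers was detected in all samples. Kit was between 427.1 and 505.1 CPM, whereas Ly6a, which encodes Sca-1, was low, between 13.3 and 30.5 CPM, with log2 fold changes of 0.0041 (SE 0.064) and -0.011 (SE 0.25). Between 0.623% and 2.92% of counts fell on Rn45s, a precursor of ribosomal RNA.

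Before the values, the upstream sequences of the chain genes are shown because they hold the letters of the motifs through which class I genes are known to be regulated. RefSeq promoters (GRCm38.p6, 250 bases before to 50 after a start site) were given for 8 of the 10 genes. Tap2 and Nlrc5 were not matched. The capitals mark, in order, an NF-kB match and an interferon regulatory factor match (in B2m the interferon regulatory factor match comes first), then TGACG, the core of a cyclic AMP response element, and ATTGG, the NF-Y motif on the other strand. The H2-K1 stretch lies at chr17:34000348-34000597 on the minus strand and ends at the base before the start site, and that of B2m at chr2:122147437-122147685 on the plus strand.
H2-K1: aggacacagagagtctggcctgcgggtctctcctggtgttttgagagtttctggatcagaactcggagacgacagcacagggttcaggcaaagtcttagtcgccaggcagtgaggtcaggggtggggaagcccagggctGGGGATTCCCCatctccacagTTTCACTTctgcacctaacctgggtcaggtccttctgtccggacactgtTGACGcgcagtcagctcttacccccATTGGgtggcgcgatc
B2m: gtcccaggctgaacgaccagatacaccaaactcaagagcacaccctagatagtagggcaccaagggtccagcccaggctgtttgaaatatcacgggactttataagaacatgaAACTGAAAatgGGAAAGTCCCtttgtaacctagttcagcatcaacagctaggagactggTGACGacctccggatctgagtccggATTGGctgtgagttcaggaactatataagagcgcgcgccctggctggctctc

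The stretch with the NF-kB and the beginning of the interferon regulatory factor match was nearly the same in both heavy chain genes, with 29 of 30 bases equal. The H2-K1 stretch lies at chr17:34000432-34000461 (minus strand) and the H2-D1 stretch at chr17:35262920-35262949 (plus strand).
H2-K1 stretch: gctGGGGATTCCCCatctccacagTTTCAC
H2-D1: gctGGGGATTCCCCatctcctcagTTTCAC

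Over both strands, AANNGAAA (interferon regulatory factor) was found in 23.9% of the 32851 promoters of this length, CCAAT (NF-Y) in 37.4%, TGACG in 20.8%, TTCNNNGAA (gamma-activated site) in 8.30% and the NF-kB consensus in 8.46%. H2-K1, H2-D1 and B2m each held all of these but the gamma-activated site. The NF-kB letters of H2-K1 and H2-D1 match on both strands of the same bases. Tap1 and Psmb9 are transcribed away from each other, with start sites 226 bases apart, and their windows share 275 bases that hold an NF-Y and a TGACG match. Tapbp held the NF-Y motif only, Psmb8 the gamma-activated site only, and Psmb10 none of the 5. A match describes the letters and is not a site of binding.

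In Ddx41+/- LSK cells the mean of each of the 10 class I genes was below that of Ddx41+/+ cells, by small amounts. The group means in Ddx41+/- ran from 88.7% (Tap2) to 99.0% (B2m) of the Ddx41+/+ means, and 0 of the 10 genes passed the test at an adjusted p under 0.05 (edgeR's quasi-likelihood test, Benjamini-Hochberg adjustment over 13340 genes), where 0.217% of all genes did. DESeq2 and limma-voom, with and without sample quality weights, also called 0 of the 10. The unadjusted p was under 0.05 for 4 genes, all with the lower mean in Ddx41+/- (H2-K1, H2-D1, Tap2 and Psmb9), where 4.93% of all genes met this in that direction. A log2 fold change below 0 was found in 10 of 10 genes against 51.2% of all genes, and the median was -0.12 against -0.0048. In 4 genes all Ddx41+/- samples were below all Ddx41+/+ samples (H2-K1, Tap1, Tapbp and Psmb9), against 5.21% of all genes for lack of overlap in that direction. The 10 genes were measured in the same 7 samples and 7 of them lie within 1352 kb of chromosome 17, so they are not independent of one another.

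**Figure D1:**
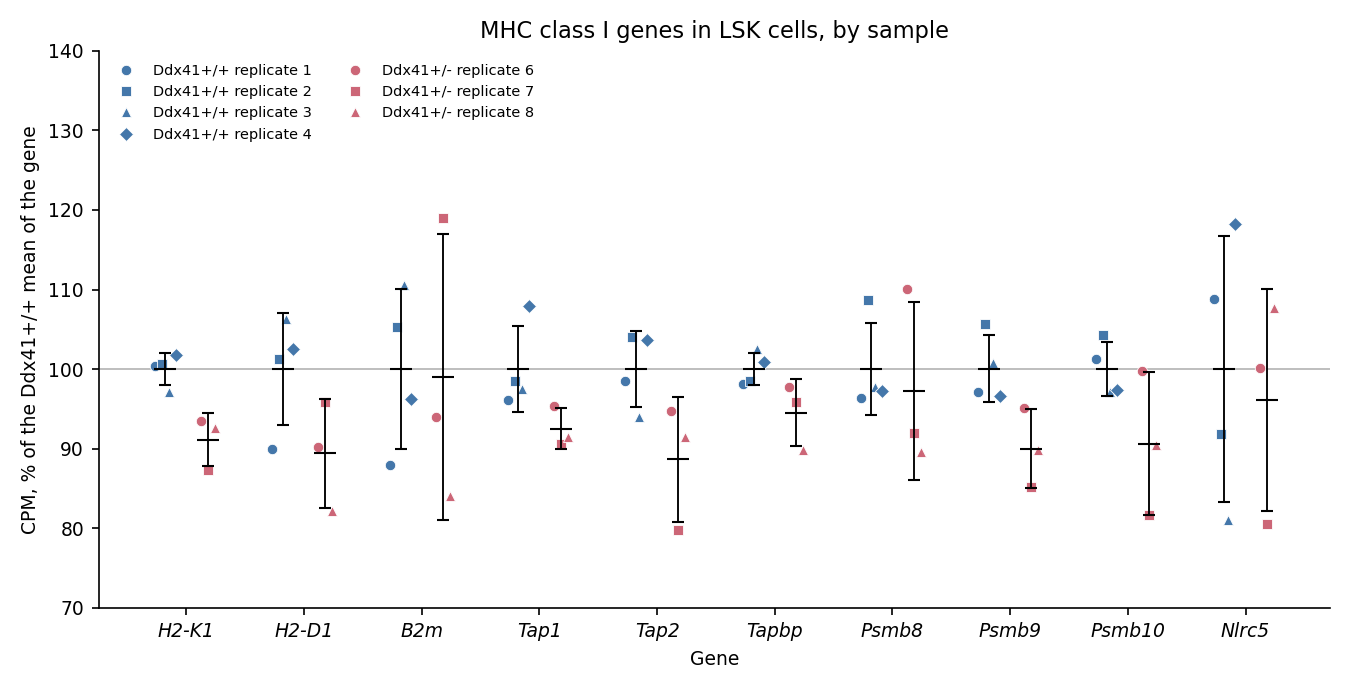
CPM of the 10 class I genes in each of the 7 samples, as a percentage of the gene's Ddx41+/+ mean (blue, Ddx41+/+, n = 4; red, Ddx41+/-, n = 3; bars, mean and SD; the axis does not start at 0). The Ddx41+/- samples lie below all Ddx41+/+ samples in H2-K1, Tap1, Tapbp and Psmb9, and the widest scatter is in B2m and Nlrc5.

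B2m and H2-K1 had the highest CPM of the group. H2-D1 was at 329.6 and 294.7 CPM in Ddx41+/+ and Ddx41+/- samples, below Psmb8 at 374.6 and 364.2 CPM. Per kb of exon, B2m was at 1351 CPM in Ddx41+/+ and 1338 CPM in Ddx41+/- samples, H2-K1 at 447.6 and 408.0, and H2-D1 at 127.8 and 114.3. H2-K1 encodes one of the classical heavy chains (GRCm38 chromosome 17, 33996017 to 34000347, minus strand). Its CPM values were 1320.7, 1324.2, 1277.7 and 1337.9 in Ddx41+/+ and 1228.6, 1149.1 and 1218.5 in Ddx41+/- samples. The 3 Ddx41+/- samples were the 3 lowest, with replicate 7 at the bottom. The mean was 1315.1 ± 26.1 CPM (SD, n = 4) against 1198.7 ± 43.3 CPM (SD, n = 3), or 91.2% (log2 fold change -0.13, SE 0.056, 95% interval -0.25 to -0.015). The edgeR p was 0.0294 before and 0.404 after adjustment. In bulk RNA, fewer cells of a type with high expression and less RNA per cell cannot be told apart.

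H2-D1, the other classical heavy chain in the table with high counts (chromosome 17, 35262730 to 35267499), was at 296.3, 333.7, 350.2 and 338.1 CPM in Ddx41+/+ and at 297.4, 315.8 and 270.8 CPM in Ddx41+/- samples. The groups overlapped, since Ddx41+/+ replicate 1 was as low as the Ddx41+/- samples. The Ddx41+/- mean was 89.4% of the Ddx41+/+ mean (log2 fold change -0.16, SE 0.070, 95% interval -0.31 to -0.013, edgeR adjusted p = 0.424). Heavy chain genes resemble each other, and reads that fit several of them may be split or dropped in counting. Of the 75-base windows along their transcripts, 1.12% for H2-K1 and 6.33% for H2-D1 also occurred in another gene.

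B2m, the light chain shared by all class I molecules (chromosome 2, 122147686 to 122153083), was at 1021.3, 1223.4, 1284.6 and 1118.5 CPM in Ddx41+/+ and at 1092.5, 1381.9 and 976.7 CPM in Ddx41+/- samples. Ddx41+/- replicates 7 and 8 were the highest and the lowest of all 7 samples. The means were 1161.9 ± 116.2 CPM (SD, n = 4) and 1150.4 ± 208.7 CPM (SD, n = 3), with a log2 fold change of -0.015 (SE 0.11, 95% interval -0.27 to 0.24, edgeR adjusted p = 0.98). The sign of this difference changed when single samples were left out, as it did for Psmb8 and Nlrc5.

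The loading genes lie on chromosome 17. Tap1 and Tap2 together encode the peptide transporter, and Tapbp encodes tapasin. Tap1 (34187553 to 34197225) was at 259.8, 266.1, 263.4 and 291.7 CPM in Ddx41+/+ and at 257.9, 245.0 and 247.2 CPM in Ddx41+/- samples. The groups did not overlap, although Ddx41+/+ replicate 1 and Ddx41+/- replicate 6 were close. The Ddx41+/- mean was 92.5% of the Ddx41+/+ mean, a log2 fold change of -0.11 (SE 0.060, 95% interval -0.24 to 0.016, edgeR adjusted p = 0.541).

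Tap2 (34203527 to 34216321) was at 316.7, 334.7, 302.3 and 333.3 CPM in Ddx41+/+ and at 304.6, 256.7 and 294.4 CPM in Ddx41+/- samples. Replicate 7 was the lowest sample, and without it the log2 fold change was -0.10. The log2 fold change was -0.17 (SE 0.068, 95% interval -0.32 to -0.030), with an edgeR p of 0.021 before and 0.367 after adjustment. Tap2 shared 8.55% of its 75-base windows with other genes. Tapbp (33915899 to 33929292) was at 223.9, 224.8, 233.9 and 230.3 CPM against 223.2, 218.9 and 204.9 CPM. The groups touched without overlap, and the log2 fold change was -0.082 (SE 0.058, 95% interval -0.20 to 0.041, edgeR adjusted p = 0.659). Tapbp shared 17.2% of its 75-base windows with other genes, most of them with the antisense gene Gm19412, and whether the counting used strand is not stated.

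The immunoproteasome subunits take the place of the constitutive catalytic subunits in cells exposed to interferon and in many blood cells, and they change which peptides are made. Psmb8 (chromosome 17, 34197721 to 34201454), which replaces Psmb5, was at 361.2, 407.1, 366.2 and 364.1 CPM in Ddx41+/+ and at 412.2, 344.7 and 335.7 CPM in Ddx41+/- samples. Each genotype had a single high sample, replicate 2 and replicate 6. The log2 fold change was -0.041 (SE 0.074, 95% interval -0.20 to 0.12, edgeR adjusted p = 0.893).

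Psmb9 (chromosome 17, 34181987 to 34187764, minus strand), which replaces Psmb6, was at 119.7, 130.2, 124.1 and 119.0 CPM in Ddx41+/+ and at 117.2, 104.9 and 110.6 CPM in Ddx41+/- samples. All 3 Ddx41+/- samples were below the Ddx41+/+ samples, with a mean of 110.9 ± 6.13 CPM (SD, n = 3) against 123.2 ± 5.14 CPM (SD, n = 4). The log2 fold change was -0.15 (SE 0.066, 95% interval -0.29 to -0.012), with an edgeR p of 0.0347 before and 0.423 after adjustment. Psmb9 and Tap1 overlap at their ends, and the shared windows were 8.22% of Psmb9 and 4.57% of Tap1.

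Psmb10, which replaces Psmb7 and lies apart from the others on chromosome 8 (105935735 to 105938444, minus strand), was at 117.4, 120.8, 112.5 and 112.9 CPM in Ddx41+/+ and at 115.6, 94.7 and 104.8 CPM in Ddx41+/- samples. Replicate 6 lay among the Ddx41+/+ samples and replicate 7 well below them. The log2 fold change was -0.14 (SE 0.073, 95% interval -0.30 to 0.012, edgeR adjusted p = 0.516), and it was -0.074 without Ddx41+/- replicate 7 and -0.22 without replicate 6.

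Nlrc5, the class I transactivator (chromosome 8, 94434356 to 94527272), had the lowest level of the group per kb of exon, at 10.97 CPM in Ddx41+/+ and 10.55 CPM in Ddx41+/- samples. It was at 101.4, 85.6, 75.5 and 110.2 CPM in Ddx41+/+ and at 93.3, 75.1 and 100.3 CPM in Ddx41+/- samples. The spread within a genotype was wider than the difference between them, and the coefficient of variation in Ddx41+/+ samples was 16.7%, the highest of the 10 genes, against 1.98% for H2-K1, the lowest. Its lowest samples, Ddx41+/+ replicate 3 and Ddx41+/- replicate 7, had the highest shares of Rn45s (2.92% and 2.58%), and its highest samples, Ddx41+/+ replicate 4 and 1 and Ddx41+/- replicate 8, had the lowest (0.877%, 1.52% and 0.623%). The part of RNA quality in this pattern was not tested. The log2 fold change was -0.057 (SE 0.13, 95% interval -0.35 to 0.24, edgeR adjusted p = 0.918), an interval that covers 78.3% to 118.1% of the Ddx41+/+ level.

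**Figure D2:**
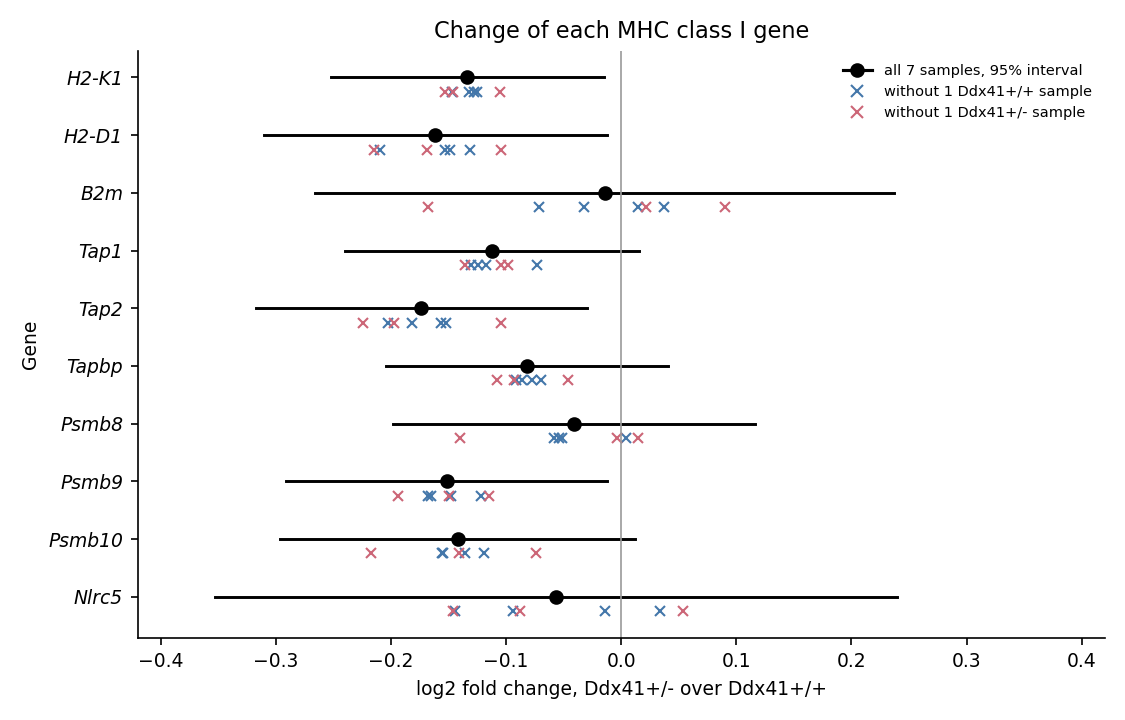
Log2 fold change of each class I gene, Ddx41+/- over Ddx41+/+, from edgeR with all 7 samples (point and 95% interval) and with each sample left out in turn (crosses, blue without a Ddx41+/+ sample and red without a Ddx41+/- sample). All 10 points lie below 0, and crosses on both sides of 0 appear for B2m, Psmb8 and Nlrc5.

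Single samples decided several of these counts. Ddx41+/- replicate 7 was the lowest of all samples in 6 genes and the highest in B2m, and replicate 8 was the lowest in the other 4. Of the 4 genes with an unadjusted edgeR p under 0.05, 1 remained below it without Ddx41+/- replicate 7 (H2-D1), 1 without Ddx41+/+ replicate 4 (Psmb9), 2 without Ddx41+/+ replicate 3 or without Ddx41+/- replicate 8 (H2-K1 and Tap2 in both cases), and 0 without Ddx41+/+ replicate 2. Without Ddx41+/- replicate 6 there were again 4, with Psmb10 in place of H2-D1. Between 8 and 10 genes were below 0 when 1 sample was left out. The median log2 fold change of the 10 genes stayed between -0.15 and -0.10 under the 16 alternatives.

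Ratios within a sample do not depend on how libraries are scaled. The ratio of each immunosubunit to the constitutive subunit it replaces, and of each heavy chain to B2m, was therefore compared between genotypes (5 ratios, exact permutation test over 35 arrangements, two-sided, smallest possible p 0.0286, adjusted over the 5). With so few arrangements, a ratio that alone had the smallest possible p could not reach an adjusted p under 0.05. Per kb of exon, Psmb9 was at 0.436, 0.406, 0.425 and 0.378 of Psmb6 in Ddx41+/+ and at 0.380, 0.330 and 0.379 in Ddx41+/- samples. Replicates 6 and 8 of Ddx41+/- were level with the lowest Ddx41+/+ sample. The difference in the log2 ratio of CPM was -0.18 (exact permutation p = 0.114, adjusted p = 0.50). The mean ratio of Psmb8 to Psmb5 was 0.991 ± 0.067 (SD, n = 4) and 0.969 ± 0.11 (SD, n = 3) (exact permutation p = 0.80, adjusted p = 0.80). That of Psmb10 to Psmb7 was 1.62 ± 0.12 and 1.54 ± 0.056 (exact permutation p = 0.314, adjusted p = 0.524). The exon lengths join all annotated exons of a gene, 3381 bases for Psmb8 against 899 for Psmb5. The size of each ratio depends on that choice, whereas the difference in log2 ratio between genotypes does not. H2-K1 was at 0.334 ± 0.038 of B2m in Ddx41+/+ and 0.313 ± 0.063 in Ddx41+/- samples, and H2-D1 at 0.0949 ± 0.0048 and 0.0865 ± 0.0089 (exact permutation p = 0.629 and 0.20, adjusted p = 0.786 and 0.50). All 5 ratios overlapped between genotypes.

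**Figure D3:**
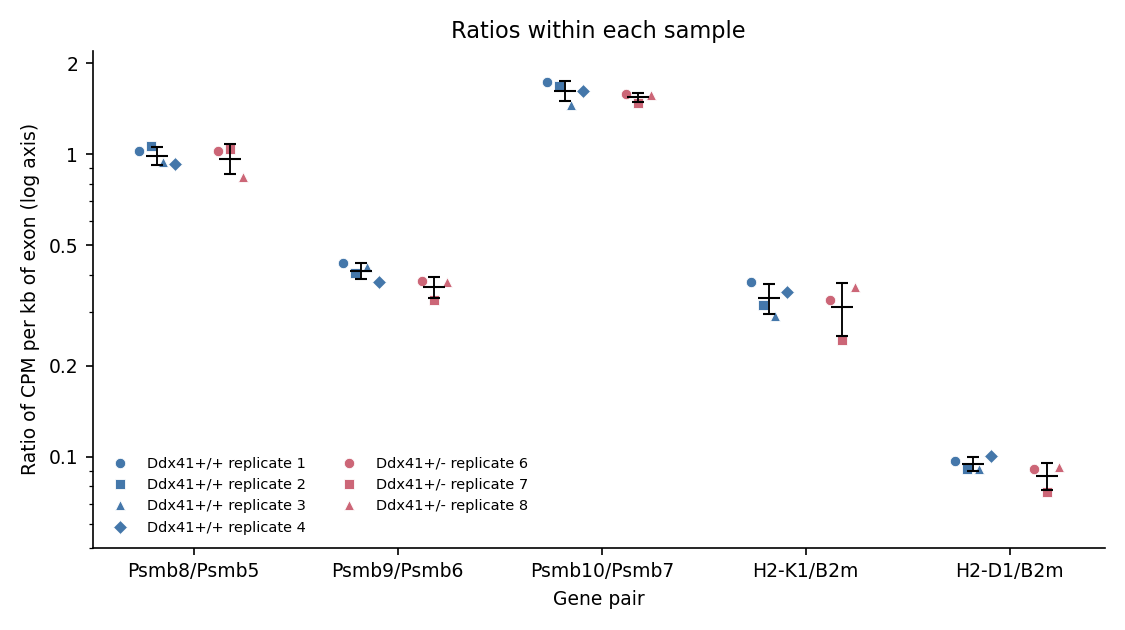
Ratio of CPM per kb of exon for 3 immunosubunits over their constitutive counterparts and for 2 heavy chains over B2m, in each sample on a log axis (blue, Ddx41+/+, n = 4; red, Ddx41+/-, n = 3; bars, mean and SD). The genotypes overlap in each ratio, and Ddx41+/- replicate 7 is lowest for Psmb9/Psmb6, H2-K1/B2m and H2-D1/B2m.

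The constitutive subunits themselves were nearly level. Psmb5, Psmb6 and Psmb7 had log2 fold changes of -0.0033 (SE 0.077), 0.026 (SE 0.068) and -0.074 (SE 0.069), with edgeR adjusted p-values of 0.992, 0.928 and 0.757. Among 16 other core proteasome and activator genes, 0 had an adjusted or an unadjusted edgeR p under 0.05 (3 had an unadjusted one without Ddx41+/- replicate 6, with the lower mean in Ddx41+/-). Without Ddx41+/- replicate 7, 1 had an unadjusted p under 0.05 with the higher mean in Ddx41+/-. Of the 16, 12 were below 0, against 51.2% of all genes, and the median log2 fold change was -0.036. Without Ddx41+/+ replicate 3, 8 were below and 8 above 0, with a median of -0.0021. The smallest p-values were those of Psmb4 (-0.17) and Psme4 (0.093).

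Further class I heavy chain and class I-like genes were listed with 24 symbols, of which 13 had enough counts to be tested. None passed with edgeR after adjustment, and 2 had an unadjusted p under 0.05 with the lower mean in Ddx41+/-, against 4.93% of all genes. The log2 fold change was below 0 in 8 of the 13, against 51.2% of all genes, and the median was -0.10. That median was -0.0081 without Ddx41+/- replicate 8, -0.045 without Ddx41+/+ replicate 4 and -0.19 without Ddx41+/- replicate 6. The number with an unadjusted p under 0.05 was 1 without Ddx41+/+ replicate 4 or Ddx41+/- replicate 7. H2-T23, which encodes the nonclassical molecule Qa-1 that is read by inhibitory receptors of NK cells, was at 123.3, 138.2, 123.6 and 135.4 CPM in Ddx41+/+ and at 119.8, 93.5 and 104.3 CPM in Ddx41+/- samples. The groups did not overlap, and the log2 fold change was -0.30 (SE 0.082, edgeR adjusted p = 0.187). H2-T23 shared 13.1% of its 75-base windows with other genes. H2-T10, which shares 23.3% of its 75-base windows with H2-T22, had a log2 fold change of -0.32 (SE 0.13, edgeR adjusted p = 0.398). H2-Q6, H2-Q7, H2-Q8, H2-Q9 and H2-M2 were listed at 0 counts in all 7 samples. H2-Q6 and H2-Q7 shared 21.1% and 22.6% of their windows with other genes.

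The genes of peptide trimming and of heavy chain folding had higher means in Ddx41+/- samples more often than lower ones. Of 16 such genes 14 were above 0 and 2 below, where 51.2% of all genes were below 0. The median log2 fold change was 0.067. None passed with edgeR after adjustment. The unadjusted p was under 0.05 for 4 with the higher mean in Ddx41+/-, where 5.70% of all genes met this in that direction. This number was 7 without Ddx41+/- replicate 6 and 3 without Ddx41+/- replicate 7. In all samples they were Hspa5, Uggt1, Calr and Canx, the last pair named after its values were seen. All 4 encode general folding factors of the endoplasmic reticulum that serve many secreted and membrane proteins. Hspa5, the chaperone BiP, was at 825.2, 895.0, 924.6 and 859.4 CPM in Ddx41+/+ and at 995.5, 1148.5 and 1242.0 CPM in Ddx41+/- samples. The groups did not overlap, and the log2 fold change was 0.37 (SE 0.072, edgeR adjusted p = 0.0503), with an adjusted p from 0.000523 to 0.179 under the alternatives and under 0.05 in 4 of 16. Calr, the chaperone calreticulin of the loading complex, had a log2 fold change of 0.21 (SE 0.068, edgeR adjusted p = 0.296).

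The transcription factors that act on class I promoters and the interferon receptors and their signalling genes gave no adjusted call with edgeR in 15 and 14 genes (DESeq2 called 1 of the 15). Their medians were -0.036 and -0.030. Irf1 and Irf2, which bind the interferon regulatory factor motif, had log2 fold changes of -0.13 (SE 0.084) and -0.072 (SE 0.078), with edgeR adjusted p-values of 0.617 and 0.795. An unadjusted p under 0.05 was found for Creb1 (0.28, adjusted p = 0.108), a factor of the cyclic AMP response element, Relb (-0.60, adjusted p = 0.352), an NF-kB subunit, and Ptpn2 (0.19, adjusted p = 0.366), a phosphatase that limits interferon signalling, all with edgeR. Of all genes, 4.93% had such an unadjusted p with the lower and 5.70% with the higher mean in Ddx41+/-. Socs3, which limits cytokine signals, had a log2 fold change of -0.35 (edgeR adjusted p = 0.527).

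Interferon-stimulated genes had lower means in Ddx41+/- samples in 29 of 38 cases, where 51.2% of all genes did, with a median log2 fold change of -0.15. The median was -0.074 without Ddx41+/- replicate 7 and -0.098 without Ddx41+/+ replicate 3. None passed with edgeR after adjustment (1 with DESeq2) and 8 had an unadjusted p under 0.05, all with the lower mean in Ddx41+/-, against 4.93% of all genes. This number was 3 without Ddx41+/- replicate 7, 14 without Ddx41+/- replicate 6, and 5 without Ddx41+/+ replicate 1, Ddx41+/+ replicate 2 or Ddx41+/- replicate 8. Ifi47, an interferon-induced GTPase, was at 123.7, 127.3, 138.5 and 121.0 CPM in Ddx41+/+ and at 109.6, 102.5 and 110.8 CPM in Ddx41+/- samples, without overlap (log2 fold change -0.25, SE 0.068, edgeR adjusted p = 0.187). Iigp1, another such GTPase, had a log2 fold change of -0.56 (SE 0.16, edgeR adjusted p = 0.195). Of the 10 genes of the MHC class II pathway, which presents peptides taken up from outside the cell, 9 were below 0, against 51.2% of all genes. Their median was -0.22. An unadjusted edgeR p under 0.05 with the lower mean in Ddx41+/- was found for 4, against 4.93% of all genes. These were H2-Aa, H2-Ob and, named after their values were seen, H2-Eb1 and H2-Ab1. H2-Aa was at 48.6, 58.8, 49.7 and 52.9 CPM in Ddx41+/+ and at 44.3, 35.2 and 41.7 CPM in Ddx41+/- samples (log2 fold change -0.38, SE 0.095, edgeR adjusted p = 0.132). With edgeR, 0 of the 10 class II genes passed after adjustment, but 1 passed without the expression filter and 1 with DESeq2, and H2-Aa had an adjusted p under 0.05 in 2 of 16 alternatives. Without Ddx41+/+ replicate 4, 2 class II genes had an unadjusted p under 0.05.

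**Figure D4:**
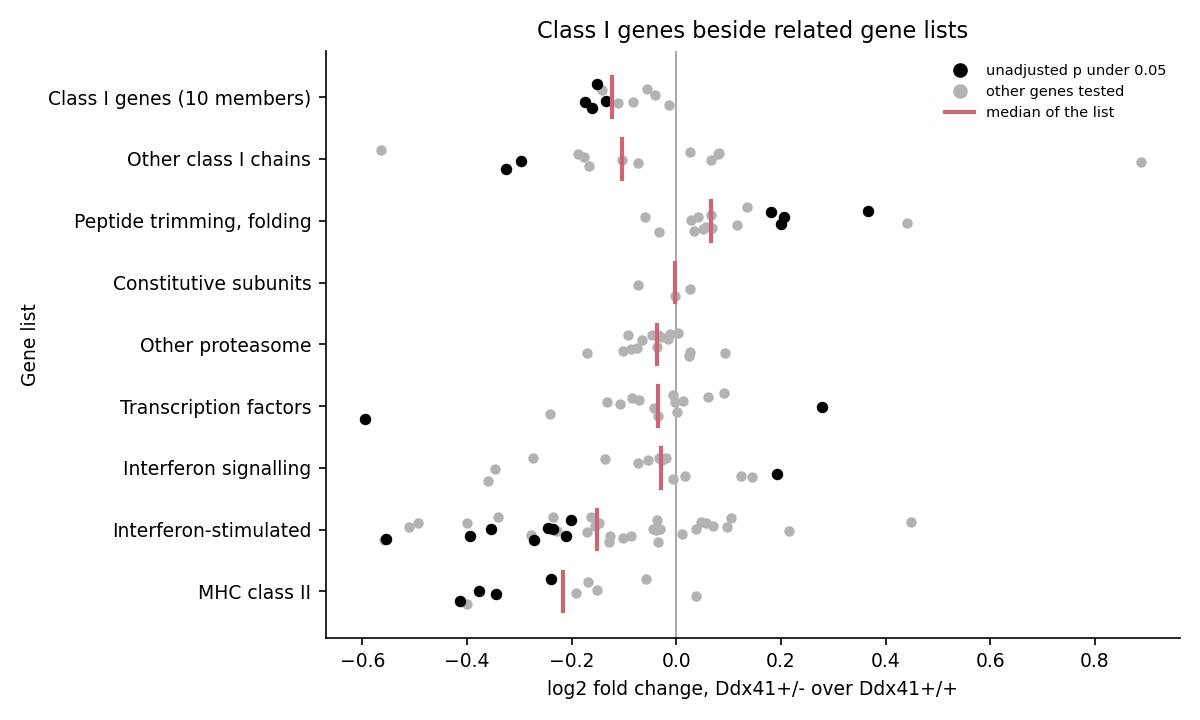
Log2 fold changes, Ddx41+/- over Ddx41+/+, of all tested genes in the 10-gene class I group and 8 related lists (each point a gene, black for an unadjusted edgeR p under 0.05, red bars for medians, vertical scatter only to separate points). The medians of the class I, interferon-stimulated and class II lists lie at -0.12, -0.15 and -0.22, and that of peptide trimming and folding at 0.067.

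Markers of other cells were measured beside these values. The summed level of 12 mature neutrophil markers was between 789.9 and 1341 CPM in Ddx41+/+ and between 1418 and 2437 CPM in Ddx41+/- samples. None of them was at 0, and Mmp9 rose (edgeR adjusted p = 0.0068, under 0.05 in all 16 alternatives). The log2 fold change was above 0 in 11 and below 0 in 1, where 51.2% of all genes were below 0. Their median was 0.81. An unadjusted edgeR p under 0.05 with the higher mean in Ddx41+/- was found for 9, against 5.70% of all genes. This number was 6 without Ddx41+/+ replicate 2 and 10 without Ddx41+/+ replicate 3. The marker below 0 was Cxcr2, named after its values were seen (-0.47 to -0.099 under the alternatives). The sums of the genotypes did not overlap. The summed level of 12 LSK markers was between 1838 and 2038 CPM against 1706 to 1848 CPM, with 7 markers at an unadjusted edgeR p under 0.05 and the lower mean in Ddx41+/- samples, against 4.93% of all genes, and 0 after adjustment. The 7 became 3 without Ddx41+/+ replicate 1 and 4 without Ddx41+/- replicate 7. The fits without an expression filter, with DESeq2 and without Ddx41+/- replicate 6 each had 1 marker that passed after adjustment. It was not the same marker in each (Hlf passed in 2 of 16 alternatives and Flt3 in 1 of 16). B-lineage markers (11 genes) summed to between 101.4 and 198.6 CPM in Ddx41+/+ samples and to 118.0, 437.3 and 108.7 CPM in Ddx41+/- replicates 6 to 8. Replicate 7 was alone above the Ddx41+/+ range. The highest marker of this list was Jchain, whose log2 fold change ran from -1.11 to 1.42 under the alternatives. Blnk of that list had an edgeR adjusted p of 0.0401 with the higher mean in Ddx41+/-, but this call held in 6 of 16 alternatives and in 0 of the 7 that left out 1 sample (adjusted p up to 0.197). Dendritic cell markers (11 genes) ranged from 379.9 to 438.1 CPM and from 328.6 to 413.4 CPM, monocyte and macrophage markers (12 genes) from 486.6 to 571.1 CPM and from 521.8 to 685.6 CPM, T and NK cell markers (12 genes) from 237.4 to 289.0 CPM and from 265.1 to 295.9 CPM, and stroma and endothelium markers (11 genes) from 172.0 to 197.7 CPM and from 185.1 to 198.2 CPM. Of 8 late erythroid markers, the 4 globin genes Hba-a1, Hba-a2, Hbb-bs and Hbb-bt were listed at 0 in all samples (they share between 55.8% and 81.0% of their 75-base windows with each other), and the list summed to between 34.6 and 64.0 CPM and between 50.3 and 71.9 CPM. The marker with the highest mean was Flt3 in the dendritic cell list, Nkg7 in the T and NK cell list and Pecam1 in the stroma and endothelium list. Flt3 was also among the LSK markers, and 7 of the 12 T and NK cell markers had too few counts to be tested. A sum is therefore not the share of a cell type. The part of these cell types in the class I values was not tested.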

How the data were processed

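Poly(A) RNA of LSK cells was sequenced by the authors, who deposited one raw count per gene symbol and sample, without normalization. The submitters' processing notes name FastQC 0.11.7, HISAT2 2.0.5, featureCounts 1.5.2 and mm10. How multi-mapping reads and strand were handled is not given in the sources used here. All 7 columns of counts were used. A Ddx41+/- library numbered 5 was removed, per the name of the deposited counts, and was not analysed here.

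Samples were grouped by labelled genotype. Counts were filtered (filterByExpr), TMM-scaled and tested with edgeR 4.0.16 (robust quasi-likelihood test, R 4.3.3), with Benjamini-Hochberg adjustment over 13340 genes at 0.05. Standard errors were derived from the F statistic. Within-sample ratios used log2 CPM (prior count 2) and exact permutation tests. Alternatives included DESeq2 1.42.0 and limma 3.58.1, other scalings and filters, and leaving out each sample. The pipeline was tested on simulated data with changes larger than those of the class I genes, which does not show its power for changes as small as theirs. Positions and exon lengths came from GENCODE M21 (GRCm38), and shared 75-base windows from its transcripts.

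Genes and lists were chosen with earlier results of these data known. Named were the 10 genes, Ddx41, Psmb5 to Psmb7, Irf1, Irf2, Kit, Ly6a and, per list other than markers, adjusted calls and the 2 smallest p-values. Marker lists were given by their sums, markers at 0 and adjusted calls, and those of LSK cells and mature neutrophils also by unadjusted calls. Some genes under the naming rule are not reported here.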

Additional observations from a re-analysis of the deposited data

Results flagged for a closer look

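The spread of 27 values over the 4 Ddx41+/+ samples was checked with Dixon's ratio, and 2 were above its 95% critical value, where chance gives 1.35. With 3 samples, Ddx41+/- was not checked. Psmb8 stood apart in Ddx41+/+ replicate 2, at 407.1 CPM against 366.2 CPM in the nearest Ddx41+/+ sample (Dixon's ratio 0.890). Irf2 stood apart in Ddx41+/+ replicate 4, at 59.3 CPM against 67.9 CPM in the nearest Ddx41+/+ sample (Dixon's ratio 0.858).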

How the results depend on the processing

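None of the 10 class I genes had an adjusted p under 0.05 in any of the 16 alternatives, where the smallest adjusted p was 0.224, and Ddx41 kept its call in all 16. The number of genes with an adjusted p under 0.05 (29) was 15 with library totals only, 14 with a non-robust dispersion, 10 with limma-voom, 91 without an expression filter and 164 with DESeq2, and between 7 and 41 when 1 sample was left out. The count was below 29 by over 1.5 times without Ddx41+/+ replicate 2 (7) or 3 (16) or Ddx41+/- replicate 7 (14) or 8 (9). The number of class I genes with an unadjusted p under 0.05 (4) was between 0 and 4 when 1 sample was left out and 4 under the 9 other alternatives. Leaving out 1 sample turned the direction of B2m (Ddx41+/+ replicate 2 or 3 or Ddx41+/- replicate 6 or 8, with log2 fold changes from -0.17 to 0.090). It also turned Psmb8 (Ddx41+/+ replicate 2 or Ddx41+/- replicate 8, -0.14 to 0.015) and Nlrc5 (Ddx41+/+ replicate 4 or Ddx41+/- replicate 7, -0.15 to 0.053). It turned the log2 ratios Psmb8/Psmb5 (Ddx41+/- replicate 8, -0.091 to 0.060, with 0.0 without Ddx41+/+ replicate 2) and H2-K1/B2m (Ddx41+/- replicate 7, -0.23 to 0.060). It moved H2-D1 from -0.16 to -0.10 (without Ddx41+/- replicate 8), Tap1 from -0.11 to -0.073 (Ddx41+/+ replicate 4), Tap2 from -0.17 to -0.10 (Ddx41+/- replicate 7), Tapbp from -0.082 to -0.046 (Ddx41+/- replicate 8) and Psmb10 from -0.14 to -0.074 (Ddx41+/- replicate 7). Nlrc5 was also at 0.0098 with limma-voom and sample quality weights. Apart from fits with fewer samples or more genes tested, the cause was not tested. No paired analysis was possible because the genotypes share no replicate number in the labels. Each class I gene had at least 2391 counts in every sample.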
